A study of Mus musculus with 40 samples.

Results

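The genes described here are 44 named regulators and components of the cell division cycle, measured in mouse liver by RNA-seq. A gene was kept when its mean normalized count over all 40 livers was 10 or more. Of the 44, 43 were found in the expression table and 41 passed, out of 13776 genes with a mean of 10 or more and 17724 distinct genes in all. The 41 comprise 20 of 21 genes that act at the G1/S transition and in DNA replication, and 21 of 23 genes that act in mitosis. Kif20a, a mitotic kinesin, was not analysed here. Another 2 members fell below the minimum: Cdc6, a licensing factor, had a mean of 6.02 and ranged from 0 to 23.3, and Bub1, a spindle checkpoint kinase, had a mean of 3.36 and ranged from 0 to 15.4, with 10 livers at 0. The members just inside it were Aurkb with a mean of 10.3 and Ccnb1 with 12.9.

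The study compared liver from 8 groups of 5 mice, formed by every combination of genotype, sex and diet. Wild-type (wt/wt) and d3/d3 mice of strain C57BL/6NJ were used; d3 is a deletion of exon 3 of Ghr, the growth hormone receptor gene, and d3/d3 mice carry it on both copies. To build the cohort, sperm from d3/d3 males was frozen and used to fertilize C57BL/6NJ oocytes in vitro; the labels do not say how the wt/wt mice were bred. The pups stayed with mothers on a standard diet until weaning at 30 days. For the next 30 days they then either ate ad libitum (AL) or received a 40% calorie-restricted diet (CR), and death came at an age of roughly 2 months. A second label puts the age at sampling at 28 to 34 days, and which holds is not settled. The 8 groups were therefore wild-type AL males, wild-type CR males, d3/d3 AL males, d3/d3 CR males, and the corresponding 4 groups of females. The values are gene-level, so they could not show the loss of exon 3 and gave no check of the genotype labels.

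A cell that leaves rest makes D-type and then E-type cyclins, which with their kinases release E2F transcription factors. E2F factors switch on the genes for origin licensing, the replication fork and nucleotide supply, so that these transcripts rise before and during S phase. The mitotic genes follow later, in G2 and M, under the MuvB and FOXM1 regulators, and are switched off as cells leave division. Adult hepatocytes are mostly resting and many are polyploid, having replicated DNA without completing division.

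The promoters of 6 members described in full below are shown, because known words of the E2F and mitotic programmes were found at different rates in the replication and the mitosis genes. Each window runs from 250 bases before to 50 bases after the annotated start in RefSeq, build GRCm38.p6, read 5′ to 3′ on the gene's strand. Capitals mark 3 kinds of word found on either strand: an E2F site (TTTCCCGC, TTTGGCGC or TTTCGCGC), the cell cycle homology region word TTTGAA, and the CCAAT box. The replication genes are Mcm2 (chr6:88898731-88899030, minus strand), Mcm5 (chr8:75109259-75109558, plus strand) and Rrm2 (chr12:24708004-24708303, plus strand). The mitosis genes are Ccnb1 (chr13:100786437-100786736, minus strand), Cdk1 (chr10:69352863-69353162, minus strand) and Top2a (chr11:99024140-99024439, minus strand).
Mcm2: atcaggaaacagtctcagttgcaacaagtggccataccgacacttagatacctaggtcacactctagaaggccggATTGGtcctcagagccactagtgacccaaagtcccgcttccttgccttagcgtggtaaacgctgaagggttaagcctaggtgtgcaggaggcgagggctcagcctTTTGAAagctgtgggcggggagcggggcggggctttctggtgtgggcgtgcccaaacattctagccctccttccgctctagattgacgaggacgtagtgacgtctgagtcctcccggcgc
Mcm5: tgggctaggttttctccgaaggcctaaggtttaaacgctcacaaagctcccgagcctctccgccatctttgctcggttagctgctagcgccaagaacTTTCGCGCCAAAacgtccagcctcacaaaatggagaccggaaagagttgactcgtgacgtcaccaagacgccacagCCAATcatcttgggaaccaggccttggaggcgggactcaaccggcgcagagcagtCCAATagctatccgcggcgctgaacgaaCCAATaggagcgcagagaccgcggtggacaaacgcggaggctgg
Rrm2: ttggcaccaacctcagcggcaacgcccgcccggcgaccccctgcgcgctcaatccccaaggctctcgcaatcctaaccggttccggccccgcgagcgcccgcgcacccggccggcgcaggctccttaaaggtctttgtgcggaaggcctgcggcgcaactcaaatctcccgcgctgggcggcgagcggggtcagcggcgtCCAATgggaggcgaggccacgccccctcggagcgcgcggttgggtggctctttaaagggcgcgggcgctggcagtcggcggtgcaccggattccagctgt
Ccnb1: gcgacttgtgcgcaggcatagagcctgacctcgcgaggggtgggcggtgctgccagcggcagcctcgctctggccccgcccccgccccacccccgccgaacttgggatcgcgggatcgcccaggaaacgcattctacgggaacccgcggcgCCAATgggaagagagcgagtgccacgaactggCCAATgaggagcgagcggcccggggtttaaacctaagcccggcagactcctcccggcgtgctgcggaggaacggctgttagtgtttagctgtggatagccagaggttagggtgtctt
Cdk1: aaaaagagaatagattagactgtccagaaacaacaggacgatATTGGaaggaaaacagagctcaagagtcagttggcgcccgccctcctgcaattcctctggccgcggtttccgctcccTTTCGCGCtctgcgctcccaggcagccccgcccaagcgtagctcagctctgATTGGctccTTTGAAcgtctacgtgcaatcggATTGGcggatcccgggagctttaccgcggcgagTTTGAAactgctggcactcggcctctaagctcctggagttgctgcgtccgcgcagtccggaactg
Top2a: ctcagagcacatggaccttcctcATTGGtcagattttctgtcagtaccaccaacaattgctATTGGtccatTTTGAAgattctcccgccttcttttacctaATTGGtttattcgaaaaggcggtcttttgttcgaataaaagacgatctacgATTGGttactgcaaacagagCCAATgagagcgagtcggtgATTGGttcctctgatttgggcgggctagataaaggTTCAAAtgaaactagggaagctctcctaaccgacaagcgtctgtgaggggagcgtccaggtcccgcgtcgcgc

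Mcm5 holds an overlapping pair of E2F words on opposite strands, and Cdk1 and Top2a each hold more than 1 copy of TTTGAA beside several CCAAT boxes. Mcm2, although a replication gene, holds TTTGAA and a CCAAT box and no E2F word. Rrm2 and Ccnb1 hold CCAAT boxes alone among these words, which says only that the other letters are not in their windows. RefSeq gave a window for 33 of the 41 members. An E2F word was in 6 of 16 replication genes (37.5%; Cdk2, Cdt1, Mcm3, Mcm5, Mcm6 and Mcm7) and in 1 of 17 mitosis genes (5.88%; Cdk1), against 1.91% of all 27025 windows. TTTGAA was in 2 of 16 replication genes (12.5%) and 12 of 17 mitosis genes (70.6%), against 18.1% of all windows. CCAAT was in 68.8% of the replication and 88.2% of the mitosis windows, against 37.9% of all. These are counts of letters, and binding was not measured.

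The values are normalized counts as deposited, and reads recovered from them totalled 21132490 to 44195300 per liver. They are not divided by transcript length, so levels are compared between livers and not between genes. A gene is called changed below when its Benjamini-Hochberg adjusted p over all 13776 genes was under 0.05 in a limma fit on log2(value + 1) of all 40 livers; log2 changes are on that scale with their SE, and understate the change of the lowest genes. The labelled tissue was checked on 5 hepatocyte markers, which summed to between 1672687 and 4573357, and none of which was at 0 in all livers. Markers of other tissue were high in some livers. A list of 16 skeletal muscle genes had a mean log2 level of 8 or more in 17 livers, 7 AL and 10 CR. In 4 of those 17 the summed B cell and plasma cell markers lay between 703 and 1460, against at most 260 in the other livers. They are the fifth wild-type AL male, the third wild-type CR male, the third wild-type CR female and the fourth d3/d3 CR male. The first of these also had exocrine pancreas genes at 51729, and 15 of the 21 mitosis genes and 10 of the 20 replication genes were at their group's highest value in it. The third wild-type CR male, with exocrine pancreas genes at 2089, held the highest value of its group for 15 mitosis and 7 replication genes. Of livers outside these 4, the fifth wild-type CR female did so for 12 mitosis genes and the first d3/d3 AL male for 11. The part of these livers in the results was not tested beyond leaving them out. Counts of members called are therefore also given without these livers, which were singled out after the data were seen. In whole liver, fewer cells of a type and less RNA per cell cannot be told apart.

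On calorie restriction most replication genes that passed the test rose, and most mitosis genes that passed fell. Over the mean of the 4 diet pairs (20 CR against 20 AL livers), 13 of 20 replication genes rose and 2 fell, while 13 of 21 mitosis genes fell and 1 rose. Of all genes 45.7% were called in this comparison, 23.2% higher and 22.6% lower, so the background was even between the directions. The median log2 change was 0.44 over the replication genes and -0.54 over the mitosis genes, against 0.04 over all genes tested. Without the 17 muscle-rich livers 13 replication genes rose and 6 mitosis genes fell (Aurka, Ccnb1, Cdc20, Mki67, Cenpf and Ube2c), where 16.7% of all genes were called higher and 16.9% lower. The calls lost there were those of E2f1, Mcm7, Ccna2, Ccnb2, Cdk1, Cks2, Kif11, Nusap1, Cenpa and Cenpe. Without the 4 lymphocyte-rich livers the counts were 13 and 15, against 21.2% and 21.4%. Leaving out 1 liver at a time gave 13 to 14 replication genes higher and 10 to 16 mitosis genes lower.

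The medians of the replication and mitosis genes had opposite signs in all 4 pairs, with unequal numbers of calls. In wild-type males 9 replication genes rose and 1 fell, and 2 mitosis genes fell, where 21.5% of all genes were called, 10.1% higher and 11.4% lower. In d3/d3 males 10 replication genes rose and 1 mitosis gene fell (19.5% of all genes called, 9% higher and 10.5% lower). In wild-type females 5 replication genes rose and 1 mitosis gene fell (11.7% called, 4.56% higher and 7.11% lower). In d3/d3 females 3 replication genes rose and 1 fell, and 6 mitosis genes fell (17.9% called, 8.33% higher and 9.55% lower). In this fit the mitosis genes called lower were thus a smaller share than that of all genes in the first 3 pairs and a larger one in d3/d3 females. That order depended on the setting. With edgeR on recovered reads 5 fell in wild-type males, a larger share than the 1680 of 13776 genes called lower. Without the muscle-rich livers 1 fell in d3/d3 males and 1 in wild-type females, larger shares than the 4.23% and 2.41% of all genes. The median change of the replication genes was 0.52, 0.62, 0.44 and 0.25 in that order of pairs, and that of the mitosis genes -0.69, -0.42, -0.18 and -0.82. The 4 pairs share no liver with each other, but the mean above is made of them. Without overlap, CR lay above AL for 6, 9, 4 and 2 replication genes and no mitosis gene, in that order of pairs. It lay below for 1, 2, 1 and 7 mitosis genes and for 0, 0, 1 and 1 replication genes. Of all genes 6.42%, 7.09%, 4% and 4.75% lay so above, and 7.74%, 9.23%, 5.64% and 5.53% below.

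**Figure D1:**
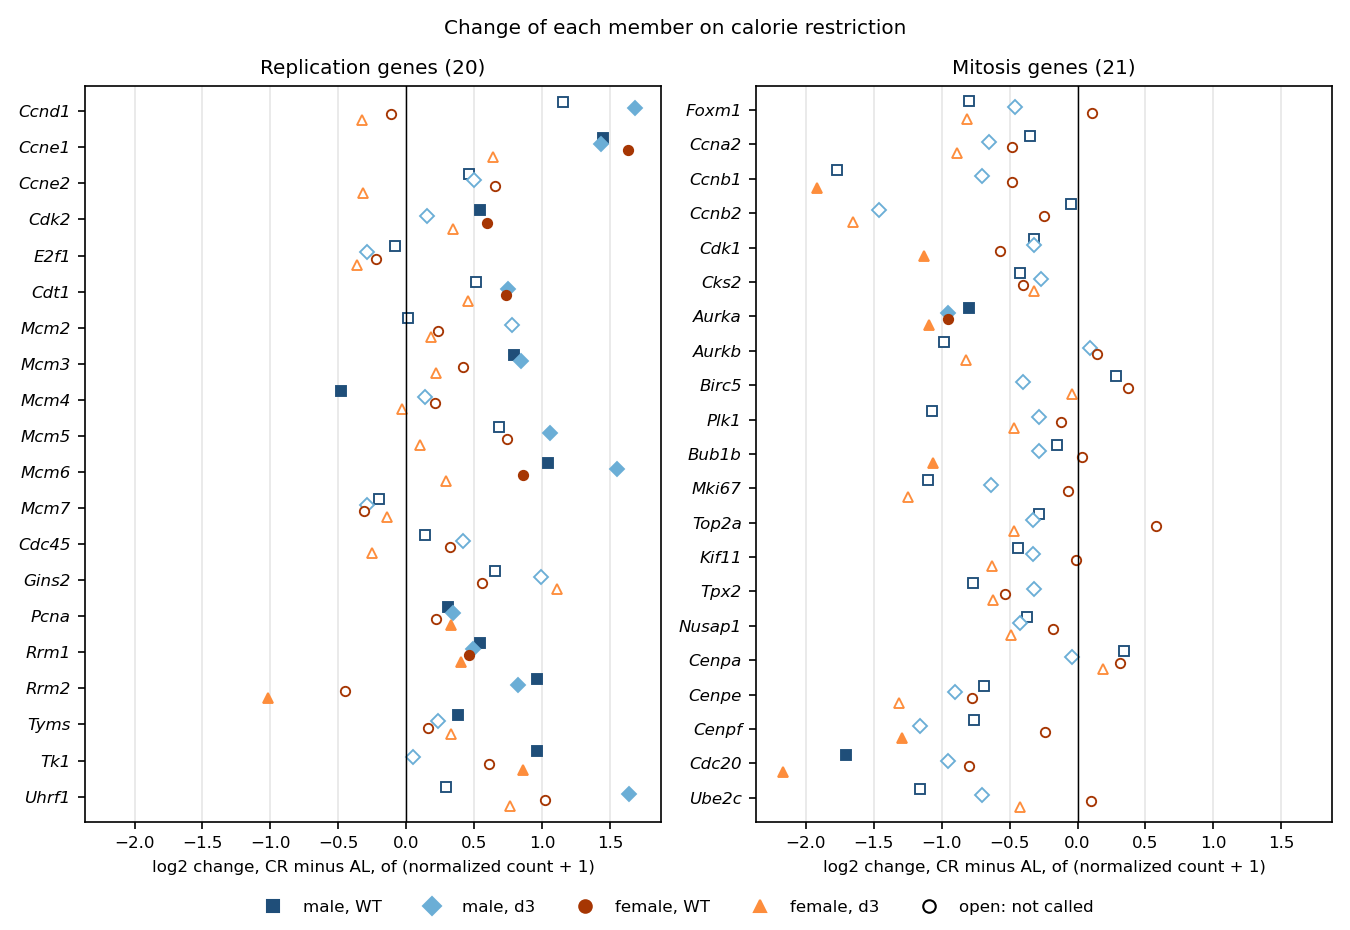
Log2 change on calorie restriction (x axis, CR minus AL, of normalized count + 1) of the 20 replication genes (left) and 21 mitosis genes (right) in the 4 pairs of 5 against 5 livers; filled symbols passed an adjusted p of 0.05 and open ones did not. Filled symbols lie mostly right of 0 for the replication genes and all left of 0 for the mitosis genes, and Aurka is filled in all 4 pairs.

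The counts within pairs moved with the livers that were left out. Without the muscle-rich livers, which leaves 23, replication genes called higher numbered 10 in wild-type males, 2 in d3/d3 males, 1 in wild-type females and 2 in d3/d3 females, and mitosis genes called lower numbered 2, 1, 1 and 1. Of all genes 8.52%, 3.95%, 1.63% and 4.03% were then called higher in those pairs, and 9.68%, 4.23%, 2.41% and 3.54% lower. Without the 4 lymphocyte-rich livers the same counts were 9, 8, 5 and 3, and 2, 2, 1 and 7, against 9.07%, 8.12%, 3.72% and 9% of all genes higher and 10.6%, 9.46%, 4.48% and 10.4% lower. In d3/d3 females leaving out the third AL liver or the fifth CR liver left 3 mitosis genes called lower in place of 6, and leaving out the fifth AL liver raised the replication genes called higher from 3 to 5. In wild-type males the members called went from 12 to 7 without the second CR liver, and the mitosis genes called lower from 2 to 5 without the third CR liver, to 4 without the second AL liver, and to 1 without the fourth or the fifth AL or the first, the second or the fourth CR liver.

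The mean over each gene list was also taken liver by liver, and not every pair separated by diet. The mean log2 level of the replication genes was 6.97 ± 0.21 (SD, n = 5) in wild-type AL males and 7.48 ± 0.06 in wild-type CR males, and 6.89 ± 0.13 and 7.56 ± 0.10 in d3/d3 males. In females it was 6.98 ± 0.08 and 7.39 ± 0.15 in wild types, and 7.12 ± 0.15 and 7.30 ± 0.08 in d3/d3 mice. The mitosis mean differed, CR minus AL, by -0.64, -0.55, -0.20 and -0.89 in wild-type males, d3/d3 males, wild-type females and d3/d3 females, with pooled SDs of 0.57, 0.24, 0.45 and 0.30. The wild-type male and wild-type female mitosis differences were thus near or within their spread between livers. The mitosis means of the diets overlapped in wild-type males (4.46 to 6.11 under AL, 3.96 to 5.10 under CR). They also overlapped in wild-type females (4.70 to 5.18 and 4.19 to 5.56), but not in d3/d3 mice. The replication means overlapped in d3/d3 females alone (6.93 to 7.34 and 7.18 to 7.40). The difference of the 2 means, replication minus mitosis, ran from 1.22 to 2.41 in wild-type AL males and from 2.47 to 3.46 in CR males. In d3/d3 males it ran from 1.81 to 2.19 and from 2.85 to 3.60, and in d3/d3 females from 1.14 to 1.73 and from 2.25 to 2.96. The diets did not overlap in any of these 3 pairs. In wild-type females the ranges of 1.79 to 2.16 and 1.95 to 3.06 overlapped.

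**Figure D2:**
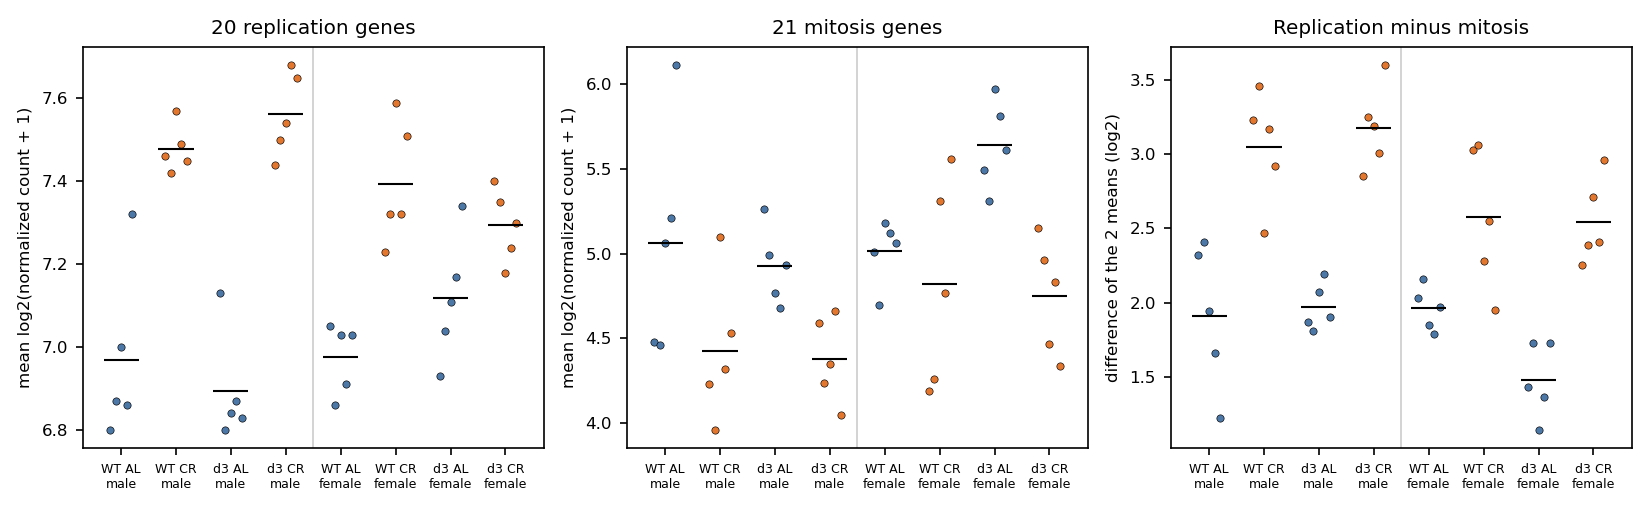
Mean log2(normalized count + 1) per liver over the 20 replication genes (left) and the 21 mitosis genes (middle), and the difference of the 2 means (right); each point is 1 liver, the bar is the mean of 5, blue is AL and orange is CR. The replication minus mitosis difference averages 1.48 to 1.97 in the AL groups and 2.54 to 3.18 in the CR groups, and the highest mitosis mean, 6.11, is a wild-type AL male.

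Of the 5 genes of G1-to-S control, 3 rose and 1 fell in the mean of the diet pairs. Ccne1 encodes cyclin E1, the partner of Cdk2 at S-phase entry, and was the member with the largest rise in that mean. The gene lies at chr7:38097984-38107534 on the minus strand (GENCODE M21, GRCm38). Its normalized counts were 5.87, 16.8, 24.4, 35.4 and 50.7 in wild-type AL males and 49.3, 54.8, 64.3, 68.3 and 70.1 in CR males. In d3/d3 males they were 17.98, 21.2, 22, 22.1 and 25.7 under AL and 48.9, 55.2, 58.9, 69.2 and 71.1 under CR. The d3/d3 males separated completely, and in wild types a single AL male reached into the CR range. Wild-type females had 3.33, 6.68, 8.70, 11.02 and 14.8 under AL and 17.6, 27.3, 28.1, 30.02 and 35.1 under CR, with no overlap. The d3/d3 females had 4.95, 8.79, 11.96, 13.6 and 23.8 and 7.36, 16.8, 20.5, 24.9 and 29.01, which overlapped. The log2 change was 1.45 ± 0.39 in wild-type males (limma adjusted p = 0.007), 1.43 ± 0.39 in d3/d3 males (adjusted p = 0.00888), 1.63 ± 0.39 in wild-type females (adjusted p = 0.00566) and 0.64 ± 0.39 in d3/d3 females (adjusted p = 0.287, not called). The changes in d3/d3 males and wild-type females were 1.46 and 1.44 without the muscle-rich livers and neither was called (adjusted p = 0.148 in each), and the wild-type male change had an adjusted p of 0.0568 with these 2 groups fitted alone. As few as 3 reads per liver lie behind the lowest values of this gene.

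Ccnd1, which encodes the growth-factor-responsive cyclin D1, was called on restriction in d3/d3 males alone among the 4 pairs; the sex difference of its response is tested further on and did not pass. AL males of the d3/d3 genotype had 144, 212, 289.8, 410 and 544, and CR males 562, 886, 949.6, 992 and 1434, with no overlap and a log2 rise of 1.68 ± 0.44 (limma adjusted p = 0.00537). In wild-type males the AL values were 239, 266, 317, 479 and 2148 and the CR values 699.7, 796, 1069, 1121 and 1717. Only the fifth AL male, the liver with lymphocyte and pancreas RNA, lay above every CR male. The change of 1.15 ± 0.44 missed the threshold with it (adjusted p = 0.0538) and was 1.71 without it (adjusted p = 0.00101). It was 1.42 without the muscle-rich and 1.52 without the lymphocyte-rich livers (adjusted p = 0.00327 and 0.00579). Females were high on both diets, at 1302 to 2927 in wild-type AL and 1443 to 2401 in wild-type CR livers, with a change of -0.11 ± 0.44 (adjusted p = 0.907). In d3/d3 females the values of 1530.0 to 3165 and 703 to 4382 gave -0.33 ± 0.44 (adjusted p = 0.658). Over the mean of the 4 pairs Ccnd1 rose by 0.60 ± 0.22 (adjusted p = 0.0242; 0.0719 in edgeR).

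Cdk2, the kinase partner of cyclins E and A, rose from a mean of 374 ± 64.4 (SD, n = 20) to 494 ± 70.4, a log2 change of 0.41 ± 0.07 (limma adjusted p = 4.5e-06). It rose in both wild-type pairs, by 0.54 ± 0.13 in males and 0.59 ± 0.13 in females, the latter with an adjusted p of 0.0744 without the muscle-rich livers. E2f1, the activating E2F factor, fell slightly, from 69.1 ± 19.0 to 58.3 ± 14.3 (-0.24 ± 0.10, adjusted p = 0.0465), and 22 of the 40 fits that left out 1 liver lost this call, as did those without the muscle-rich or the lymphocyte-rich livers (0.281 and 0.0622). Ccne2, cyclin E2, did not pass (0.32 ± 0.15, adjusted p = 0.0827).

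Among the 9 genes of origin licensing and firing, 5 rose and 1 fell. The MCM genes encode the subunits of the replicative helicase, and its 6 subunits did not move together. Mcm6 (chr1:128331590-128359664, minus strand) rose most. In wild-type males it was 75.1, 86.5, 88.7, 93.05 and 151 under AL and 169, 194, 196, 213 and 222 under CR. In d3/d3 males it was 68.2, 69.6, 78.9, 81.2 and 116 under AL and 179.5, 219.8, 263, 274 and 281 under CR. Every CR male lay above every AL male of either genotype. Wild-type females had 71.1, 76.4, 98.4, 114 and 137 under AL and 159.5, 172, 180, 181 and 189.6 under CR, also without overlap. The d3/d3 females ranged from 85.4 to 155 under AL and from 121 to 213 under CR, and overlapped. The log2 changes were 1.04 ± 0.19 in wild-type males (limma adjusted p = 0.00011), 1.55 ± 0.19 in d3/d3 males (1.36e-07), 0.86 ± 0.19 in wild-type females (0.00228) and 0.29 ± 0.19 in d3/d3 females (0.322).

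Mcm5 had 12.1, 20.9, 25.3, 41.2 and 41.2 in d3/d3 AL males and 42.2, 43.2, 44.01, 71.98 and 83.2 in CR males, which did not overlap, and rose by 1.06 ± 0.26 (limma adjusted p = 0.00398). That change was 0.62 and not called without the muscle-rich livers (0.249), and with these 2 groups fitted alone its adjusted p was 0.0597. In wild-type males its values were 22.8, 26.2, 38.7, 39.5 and 53.1 and 42.6, 53, 55.95, 56.3 and 76.4, and in wild-type females 29, 32.1, 34.4, 36.5 and 39.99 and 38.96, 58.6, 62.6, 66.6 and 66.9. Both wild-type pairs overlapped and just missed the threshold (adjusted p = 0.0622 and 0.0641). In d3/d3 females the change was 0.10 ± 0.26 (0.839). Over the mean of the pairs Mcm5 rose by 0.65 ± 0.13 (adjusted p = 0.000138) and Mcm3 by 0.57 ± 0.11 (5.6e-05). Mcm2 did not pass in the mean (0.30 ± 0.17, adjusted p = 0.134) or in any pair, and the largest of its 4 changes was 0.78 ± 0.33 in d3/d3 males (0.0906). Mcm4 did not pass in the mean (-0.04 ± 0.09, 0.726) but fell in wild-type males (-0.48 ± 0.17, 0.0414), a call that 7 of 40 fits without 1 liver lost, and that the fits without the muscle-rich or the lymphocyte-rich livers lost too (0.0645 and 0.0566). Mcm7 fell, from 467 ± 52.2 (SD, n = 20) to 398 ± 49.9 (-0.23 ± 0.06, 0.001), a call that was lost without the muscle-rich livers.

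Cdt1, which loads the helicase onto origins, rose from 74.2 ± 18.9 (SD, n = 20) to 115 ± 33.9 (0.61 ± 0.12, limma adjusted p = 5.94e-05). Gins2, a subunit of the complex that activates the helicase, rose from 144 ± 58.9 to 244 ± 77.2 (0.83 ± 0.21, 0.00146), although it passed in no single pair. Cdc45, the other helicase activator among the members, did not pass (0.16 ± 0.12, 0.296).

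Of the 6 genes of the fork and of nucleotide supply, 5 rose and none fell in the mean. Rrm1, the large subunit of ribonucleotide reductase, was the steadiest: AL livers of all groups lay between 323 and 462, and CR livers between 439 and 648. The groups did not overlap within any of the 4 pairs, and Rrm1 was called in each, with log2 changes of 0.54, 0.49, 0.46 and 0.40 (SE 0.09) in wild-type males, d3/d3 males, wild-type females and d3/d3 females. The mean change was 0.47 ± 0.05 (limma adjusted p = 3.72e-10). Of these 4 calls, that in wild-type males was kept without the muscle-rich livers; the female changes were then 0.46 in wild types (0.0567) and 0.32 in d3/d3 mice (0.194). Pcna, the sliding clamp of the fork, rose from 769.8 ± 68.1 (SD, n = 20) to 952 ± 116 (0.30 ± 0.05, 1.62e-05), and was called in both male pairs and in d3/d3 females. The d3/d3 male call was lost without the muscle-rich livers (0.0874). Tyms, which makes thymidylate, rose by 0.28 ± 0.06 (0.000372).

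Rrm2, the small and S-phase-limited subunit of the same reductase, rose in males of both genotypes and fell in d3/d3 females. Male wild types had 63.9, 71.6, 101, 108.5 and 121 under AL and 93.1, 101, 179, 294 and 347 under CR. Male d3/d3 mice had 124, 132, 145, 149.1 and 156 under AL and 164, 180.5, 268, 289 and 423 under CR. The CR males were the higher group, without overlap in d3/d3 mice. Female wild types had 100.3, 156, 162, 181 and 277 under AL and 88.8, 104, 112, 131 and 197 under CR. Female d3/d3 mice had 153, 178, 194, 241 and 257 under AL and 77.3, 91.4, 93.3, 115 and 120.4 under CR. Here the CR livers were the lower group, again without overlap in d3/d3 mice. The log2 changes were 0.96 ± 0.29 in wild-type males (limma adjusted p = 0.0167), 0.82 ± 0.29 in d3/d3 males (0.0446), -0.45 ± 0.29 in wild-type females (0.355) and -1.02 ± 0.29 in d3/d3 females (0.0127). The calls in wild-type and d3/d3 males were lost in 3 and 8 of 40 fits without 1 liver. The d3/d3 changes were 0.90 in males (0.267) and -1.04 in females (0.18) without the muscle-rich livers, and neither was called. The male d3/d3 call was also lost without the lymphocyte-rich livers (0.0765), and the wild-type male call with these groups fitted alone (0.111).

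Tk1, the thymidine salvage kinase, had 459.8, 551, 647, 648 and 739 in wild-type AL males and 863, 939, 1267, 1349 and 1602 in CR males, with no overlap (0.96 ± 0.25, limma adjusted p = 0.00454). In d3/d3 females it had 349, 558, 734, 802 and 1033 under AL and 950.3, 990, 1212, 1406 and 1459 under CR, which overlapped (0.86 ± 0.25, 0.0129; 0.0661 without the fifth AL liver and 0.135 without the muscle-rich livers). In d3/d3 males the AL livers were already at 630.4 to 1332 and the CR livers at 684 to 1431, and no change was called. Uhrf1, which carries DNA methylation through replication, was at 3.69 to 12.1 in d3/d3 AL males and at 23.5 to 48.9 in CR males, a rise that passed (1.64 ± 0.44, 0.00663; 0.0611 without the muscle-rich livers), and it rose by 0.93 ± 0.22 in the mean of the pairs (0.000703).

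**Figure D3:**
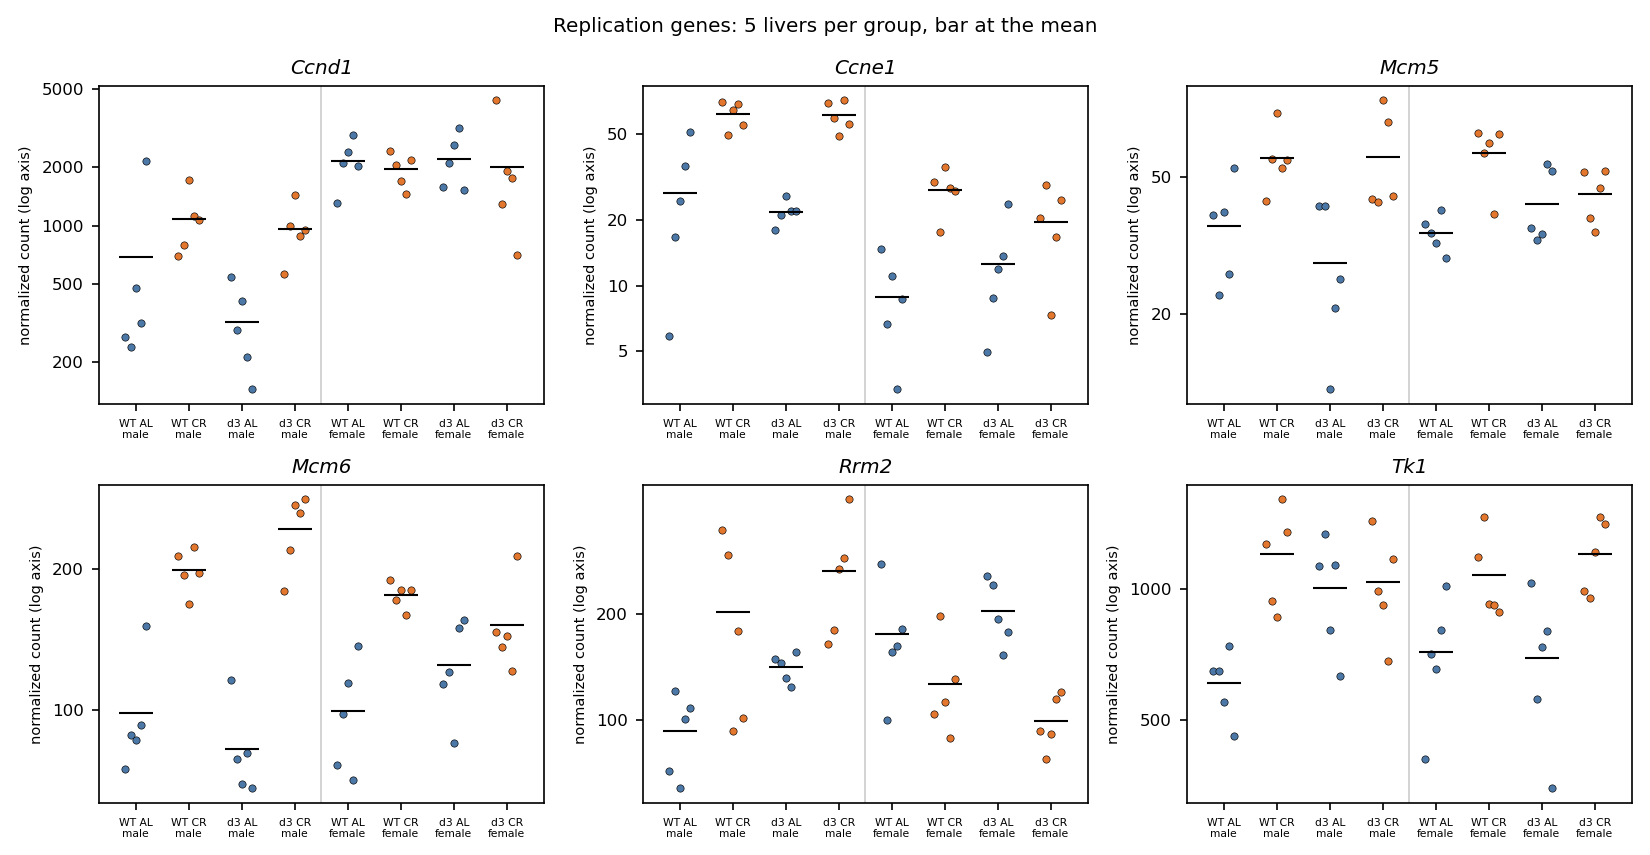
Normalized counts (log axis) of Ccnd1, Ccne1, Mcm5, Mcm6, Rrm2 and Tk1 in every liver of the 8 groups, blue for AL and orange for CR, with a bar at the mean of 5. Ccne1 and Mcm6 are higher under CR in males of both genotypes and in wild-type females, Rrm2 is higher under CR in males and lower in d3/d3 females, and Ccnd1 is lowest in the AL males.

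Of the 6 genes of entry into mitosis, 5 fell in the mean of the diet pairs and none rose. Cdk1 encodes the mitotic kinase. Its values in d3/d3 females were 44.7, 55.7, 62.8, 64.9 and 74.2 under AL and 22.1, 22.5, 22.8, 32.8 and 35.9 under CR, which did not overlap, and it fell by 1.13 on the log2 scale (SE 0.29, limma adjusted p = 0.00474; -1.05 and 0.118 without the muscle-rich livers). In wild-type females they were 29.99, 33.1, 36.5, 39.1 and 41.6 and 16.3, 16.6, 19.7, 25.3 and 56.2. Here the fifth CR liver alone lay above all AL livers; the change was -0.57 ± 0.29 with it (0.205) and -0.87 without it (0.0319). That liver had the highest summed Kupffer cell markers of all 40, 12003 against 3386 to 5444 in the other wild-type CR females, and the part of this in its Cdk1 level was not tested. In males the 2 diets overlapped in both genotypes, with a change of -0.32 ± 0.29 in each (0.468 in wild types and 0.459 in d3/d3 mice). The mean change was -0.59 ± 0.14 (0.000962), and 0.0762 was the adjusted p without the muscle-rich livers, with a change of -0.45.

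Ccnb1 encodes cyclin B1, the activator of Cdk1, and is close to the limit of this depth, with 1 to 59 reads per liver. Wild-type AL males had 3.52, 5.99, 15.04, 32.8 and 69.6 and CR males 1.02, 2.04, 2.64, 4.66 and 19.6. Female d3/d3 mice had 13.6, 14.9, 31.7, 46.4 and 48.7 under AL and 3.15, 5.44, 5.53, 9.58 and 11.5 under CR. The females were separate and the males overlapped. The change of -1.92 ± 0.67 in d3/d3 females passed (limma adjusted p = 0.0402), though 6 of 40 fits without 1 liver lost it, and the change of -2.09 without the muscle-rich livers did not pass (0.136). In wild-type males the change was -1.77 ± 0.67 (0.053), and in d3/d3 males and wild-type females -0.70 and -0.48 (SE 0.67; 0.494 and 0.702). The mean change of -1.22 ± 0.33 passed (0.00301). Ccnb2, a second B cyclin, fell from 25.0 ± 13.5 (SD, n = 20) to 12.2 ± 6.35 (-0.85 ± 0.32, 0.0279; 0.0919 without the lymphocyte-rich and 0.217 without the muscle-rich livers), Ccna2, cyclin A2, changed by -0.59 ± 0.18 (0.00817), and Cks2, a Cdk1 subunit, by -0.35 ± 0.10 (0.00434). The calls of Ccna2 and Cks2 were lost without the muscle-rich livers. Foxm1, the transcription factor of the mitotic programme, did not pass (-0.49 ± 0.22, 0.0627), but did without the lymphocyte-rich livers (0.0484).

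Aurka (chr2:172356190-172370535, minus strand), the centrosome and spindle kinase, was the member that separated the diets most completely. Male wild types had 120.3, 131, 139, 140.3 and 155 under AL and 64.3, 71.3, 84.3, 86.2 and 87.4 under CR. Male d3/d3 mice had 110.5, 111, 124, 125 and 152 under AL and 55.1, 59, 59.1, 73.5 and 73.6 under CR. Every one of the 20 AL livers, at 110.5 or more, lay above every CR liver, at 87.4 or less. Female wild types had 125, 140.2, 142, 166 and 171 under AL and 68.9, 70.3, 72.5, 84.97 and 86.7 under CR. Female d3/d3 mice had 137, 142, 158, 172 and 183 under AL and 57.3, 73.4, 73.5, 80.8 and 85.2 under CR. The log2 changes were -0.80, -0.95, -0.95 and -1.09 (SE 0.13) in that order of pairs, with limma adjusted p of 1.76e-05, 9.38e-07, 3.23e-06 and 1.87e-07. The mean change was -0.95 ± 0.06 (2.4e-14). Aurka kept its call in all 4 pairs without the muscle-rich livers. Of the other mitotic kinases and checkpoint genes, Aurkb, Plk1 and Bub1b did not pass in the mean (-0.39 ± 0.27, -0.49 ± 0.24 and -0.37 ± 0.16) and neither did Birc5 (0.05 ± 0.13), the survivin subunit of the Aurora B complex. Bub1b fell in d3/d3 females (-1.06 ± 0.32, 0.0181; 0.0977 without the muscle-rich livers).

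Of the 8 genes of chromosomes, kinetochore and spindle, 5 fell and 1 rose. Mki67, the proliferation marker Ki-67, had 64.7, 105, 114, 119.7 and 131 in d3/d3 AL females and 24.9, 31.5, 46.3, 62.2 and 64.7 in CR females, where the highest CR value lay at the lowest AL value. That difference of -1.25 ± 0.50 did not pass alone (limma adjusted p = 0.0813). Wild-type females had 37.2, 39.1, 50.3, 83.3 and 87.2 under AL and 20.6, 28.3, 46.2, 111 and 137 under CR, and the CR livers spread more widely on both sides. The mean change of Mki67 was -0.76 ± 0.25 (0.0129). Top2a, the topoisomerase that untangles replicated chromosomes, did not pass in the mean (-0.13 ± 0.16, 0.54) or any pair. The falls that passed were those of Cenpe (-0.92 ± 0.35, 0.0293; 0.196 without the muscle-rich livers) and Cenpf (-0.86 ± 0.23, 0.00218), both kinetochore proteins, Nusap1 (-0.37 ± 0.14, 0.0282), a spindle microtubule protein, and Kif11 (-0.35 ± 0.14, 0.0328), the motor that separates the spindle poles. Cenpa, the centromeric histone, rose by 0.20 ± 0.07 (0.0241). The calls of Nusap1, Kif11 and Cenpa were lost without the muscle-rich livers. Tpx2, the activator of Aurora A at the spindle, did not pass (-0.56 ± 0.25, 0.0715).

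Both genes of mitotic exit fell. Cdc20 activates the ubiquitin ligase that ends mitosis. In d3/d3 females it had 22.4, 31.7, 41.6, 60.02 and 77.7 under AL and 4.66, 5.25, 8.98, 9.58 and 21.3 under CR, which did not overlap, and fell (fitted fold 0.221, log2 -2.17 ± 0.60, limma adjusted p = 0.00936; 0.075 without the muscle-rich livers). In wild-type males it had 8.39, 13.2, 14.1, 22.3 and 128 under AL and 0.88, 7.11, 7.13, 9.32 and 12.1 under CR. The fifth AL male stands far above the rest of its group. The change was -1.70 ± 0.60 with it (0.0379) and -1.07 without it (0.178); 4 other livers also ended the call when left out, and so did leaving out the muscle-rich (0.108) or the lymphocyte-rich livers (0.111). The mean change of Cdc20 was -1.41 ± 0.30 (0.000215). Ube2c, the ubiquitin-conjugating enzyme of the same ligase, changed by -0.54 ± 0.22 (0.0429). Its call was lost with a pseudocount of 10, without the filter on mean count, and in edgeR.

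**Figure D4:**
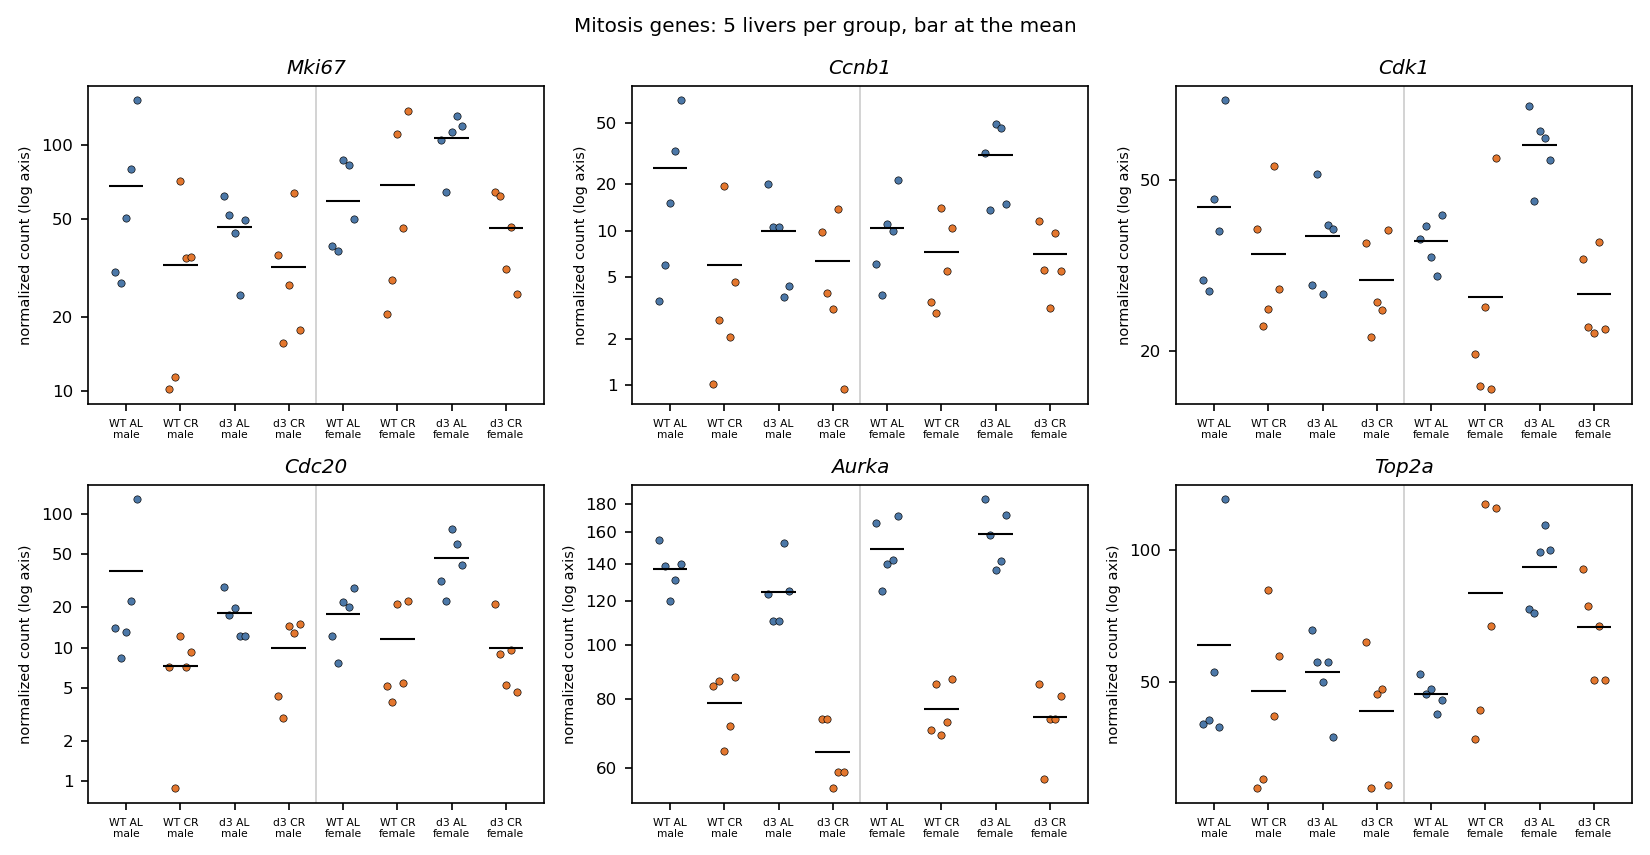
Normalized counts (log axis) of Mki67, Ccnb1, Cdk1, Cdc20, Aurka and Top2a in every liver of the 8 groups, blue for AL and orange for CR, with a bar at the mean of 5. Aurka runs from 110.5 to 183 in the AL livers and from 55.1 to 87.4 in the CR livers without overlap, and the fifth wild-type AL male is the highest of its group for Cdc20 and Top2a.

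The other genes of the cycle, taken from lists that hold no members, were read against the same background of 23.2% higher and 22.6% lower. Of 31 genes of origin recognition and the replisome, 22 rose and 1 fell, with a median of 0.37. Lig1, the ligase that joins Okazaki fragments, rose from 80.8 to 153 (0.94 ± 0.09, limma adjusted p = 4.43e-11), Pold2, a subunit of DNA polymerase delta, by 0.90 ± 0.10 (6.47e-09), Mcm10, a replication initiation factor, by 0.81 ± 0.15 (3.35e-05) and Pole, the leading-strand polymerase, by 0.65 ± 0.10 (1.1e-06). The changes of Mcm10 were 1.49 in wild-type females (0.000925), 1.60 in d3/d3 females (0.000268), 0.65 in wild-type males (0.124, not called) and -0.49 in d3/d3 males (0.257, not called). Orc2 and Orc3, of the origin recognition complex, did not pass (0.07 ± 0.09 and 0.00 ± 0.05). Of 12 genes of cytokinesis and the spindle midzone, 3 fell and none rose, with a median of -0.42. They were Kif4 (-0.64 ± 0.23, 0.0239), Hmmr (-0.55 ± 0.12, 0.000186) and Prc1 (-0.52 ± 0.14, 0.00218), which bundle or move spindle microtubules. Of 10 condensin and cohesin genes 5 rose and 1 fell, and of 8 further kinetochore and checkpoint genes 2 rose and 1 fell. The medians of these lists were 0.18 and 0.02. Ncapd3, a condensin subunit, rose by 0.45 ± 0.07 (1.94e-06) and Spc24, a kinetochore subunit, by 0.42 ± 0.12 (0.00356).

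The regulators were mixed, and some varied widely within a group. In d3/d3 AL females Cdkn1c was at 268 ± 298 (SD) and Ccnd2 at 753 ± 673, and in wild-type AL males Gadd45g was at 1513 ± 1398. Of 12 inhibitors and brakes of the cycle 5 rose and 4 fell. Wee1, the kinase that holds Cdk1 inactive by phosphorylation and a known output of the circadian clock in mouse liver, rose from a mean of 83.0 to 676 (2.92 ± 0.14, limma adjusted p = 2.3e-18). Gadd45a, a stress-induced inhibitor, rose by 1.27 ± 0.21 (4.72e-06), while its relative Gadd45g changed by -1.39 ± 0.33 (0.000717), and Cdkn1c, the inhibitor p57, rose by 1.21 ± 0.21 (1.51e-05). Cdkn1b, the inhibitor p27, did not pass (0.10 ± 0.06, 0.173). Of 17 E2F and pocket protein genes 2 rose and 4 fell. E2f8, a repressor E2F, fell from 628 to 215 (-1.45 ± 0.24, 5.56e-06) and E2f3 changed by -0.51 ± 0.08 (2.32e-06), Rb1, the retinoblastoma pocket protein, changed by -0.28 ± 0.11 (0.0344), and Lin9, a MuvB subunit, rose by 0.67 ± 0.10 (2.95e-06). Of 7 further genes of G1 progression (Ccnd2, Ccnd3, Cdk4, Cdk6, Cdc25a, Myc and Skp2) 3 rose and 1 fell. Ccnd2, cyclin D2, rose by 0.82 ± 0.20 (0.00119), Cdk4 by 0.20 ± 0.05 (0.00257) and Cdc25a, a phosphatase that activates cyclin-dependent kinases, by 0.27 ± 0.09 (0.0211), and Skp2, which directs p27 to destruction, changed by -0.45 ± 0.10 (0.000639).

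**Figure D5:**
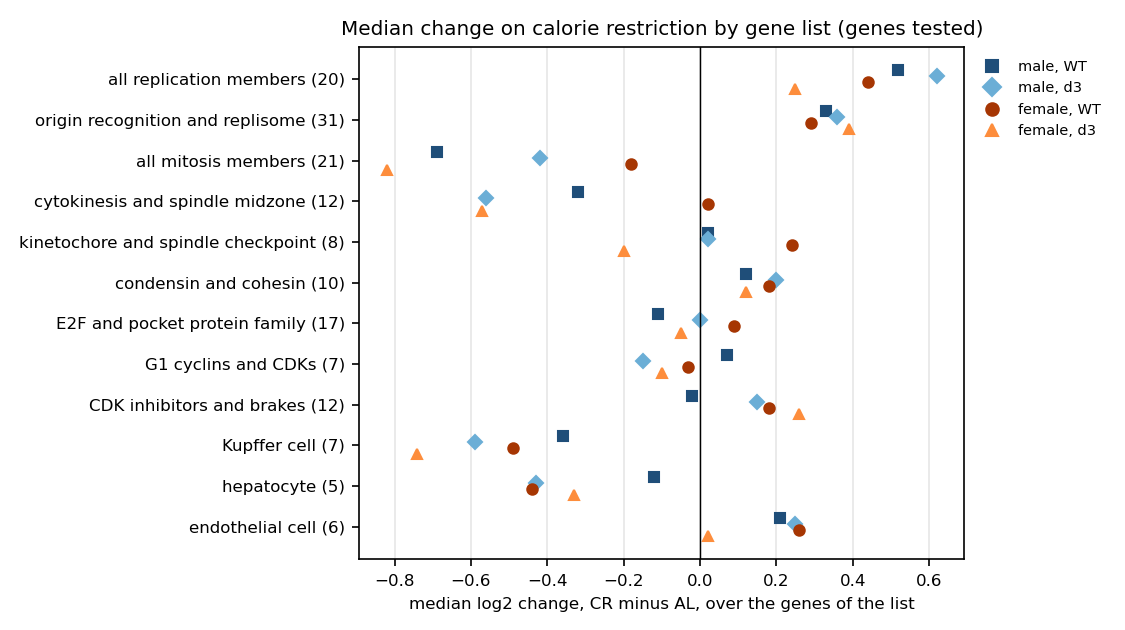
Median log2 change on calorie restriction (x axis) over the tested genes of each list, with the number of genes in brackets, in the 4 pairs of 5 against 5 livers. The 2 replication lists lie right of 0 in all 4 pairs, and the mitosis members lie left of 0 in all 4 (-0.18 to -0.82), beside the Kupffer cell markers.

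Markers of other cells also moved with diet. Of 7 Kupffer cell markers, genes of the resident liver macrophage, 5 fell and none rose in the mean of the diet pairs, with a median of -0.52; their summed level had group medians of 5925 to 8402 in AL and 3325 to 5021 in CR livers. Of 3 neutrophil and myeloid precursor markers 2 fell, and of 5 hepatocyte markers 3 fell and 1 rose. In the same comparison 23.2% of all genes rose and 22.6% fell. The 16 muscle genes had a median change of 1.94 with 1 called, and none of the 5 B cell markers passed. In wild-type males, d3/d3 males, wild-type females and d3/d3 females the Kupffer medians were -0.36, -0.59, -0.49 and -0.74. None of the 7 Kupffer markers was at 0 in all livers. Summed endothelial markers had group medians of 5188 to 6622 in AL and 5607 to 6648 in CR livers. Those of stellate cells were 9053 to 12315 and 9209 to 17173, and of cholangiocytes 1130 to 1373 and 1137 to 2189. Erythroid medians were 16408 to 28148 and 18794 to 22445, and those of T and NK cells 122 to 150 and 61.6 to 118. The part of these cells in the change of the members was not tested.

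The d3 deletion was not accompanied by a detected change in any member. By limma 0 of 41 members were called between d3/d3 and wild-type livers in AL males, CR males, AL females, CR females or the mean of the 4 pairs, where 0.0436%, 0.138%, 0%, 0% and 0% of all genes were called, and edgeR also called 0 members in each. In males 0.029% of all genes were called higher on each diet, and 0.0145% on AL and 0.109% on CR lower. At an unadjusted p under 0.05 there were 5 members in AL males, 1 in CR males, 5 in AL females, 0 in CR females and 1 in the mean, where 8.14%, 8.03%, 6.35%, 7.45% and 7.02% of all genes had such a p. In the authors' deposited table of genotype comparisons no member was under an adjusted p of 0.05 either, the lowest being 0.203 for Tk1 in AL males. For AL males, however, the authors gave an adjusted p for 27 of 43 members. Ccne1, Foxm1, Ccnb1 and Cdc20 are among those without one there. The 5 of the AL females, Top2a, Cdk1, Cenpf, Ccnb1 and Cdc20, were higher in d3/d3 livers, where 2.71% of all genes had such a p and were higher; they were picked out by that p. Top2a had 42.2, 45.4, 46.8, 48.1 and 52.1 in wild-type AL females and 71.9, 73.2, 99.1, 100.3 and 115 in d3/d3 AL females, Cdk1 had 29.99 to 41.6 and 44.7 to 74.2, and Cenpf 14.5 to 26.04 and 27.2 to 60.6. None of these 3 overlapped between the genotypes, against 0.508% of all genes so placed above in this comparison. The differences were 0.93 ± 0.32, 0.72 ± 0.29 and 1.07 ± 0.45, each with a limma adjusted p of 0.775, so they did not hold up against the number of genes tested. Ccnb1 (1.49 ± 0.67) and Cdc20 (1.32 ± 0.60) had the same adjusted p. The mitosis median was 0.60 in this pair, and -0.14, -0.03 and -0.06 in AL males, CR males and CR females, and the replication median ran from -0.07 to 0.21.

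For the members described throughout, none of the mean genotype differences passed. They were for Ccnd1 -0.25 ± 0.22, Rrm2 0.27 ± 0.15, Ccnb1 0.25 ± 0.33, Top2a 0.17 ± 0.16, Mcm2 0.15 ± 0.17, Mcm5 -0.15 ± 0.13, Cdk1 0.14 ± 0.14 and Mki67 0.10 ± 0.25. Foxm1, E2f1, Pcna and Ccne1 lay between -0.05 and 0.09. A difference that misses the threshold is not shown to be absent.

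Between the sexes, in the mean of the 4 pairs in the limma fit of all livers, replication genes called in each direction were a smaller share than that of all genes. For those higher in males this did not hold in other fits. They were 4 of 20 without the muscle-rich livers, against 12.6% of all genes. Library weights gave 6 and edgeR 3, against 2365 and 1896 of 13776 genes. Mitosis genes called lower in males were a larger share, though not without the muscle-rich livers. In the mean of the 4 sex pairs (20 males against 20 females) 2 replication genes were higher and 1 lower in males, and 5 mitosis genes were lower and none higher, where 23.9% of all genes were called, 13.6% higher and 10.3% lower. Ccnd1 had the largest difference. It was lower in males at 764 ± 539.7 (SD, n = 20) against 2072 ± 796 in females (-1.70 ± 0.22, limma adjusted p = 2.67e-07). On AL the d3/d3 males, at 144 to 544, lay wholly below the females, at 1530.0 to 3165 (-2.87 ± 0.44, 1.76e-05), and this was the only member called in that pair (6.16% of genes called, 3.44% higher and 2.71% lower). In wild-type AL livers the difference was -2.17 ± 0.44 (0.00101), where 6.48% of genes were called, 3.42% higher and 3.06% lower. On CR the difference was -0.86 ± 0.44 in d3/d3 mice and did not pass (0.223).

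Ccne1 ran the other way, with 42.6 ± 21.4 (SD, n = 20) in males and 17.2 ± 9.56 in females (1.26 ± 0.20, limma adjusted p = 1e-05). It was called in wild-type AL livers (1.32 ± 0.39, 0.0361) and in d3/d3 CR livers (1.68 ± 0.39, 0.00767), where males lay at 48.9 to 71.1 and females at 7.36 to 29.0. The wild-type AL call was lost in 5 of 40 fits without 1 liver, without the muscle-rich (0.97, 0.264) or the lymphocyte-rich livers (1.02, 0.131), with library weights (1.04, 0.0629) and with the groups fitted alone (0.256). E2f1 was also higher in males (73.5 ± 17.4 against 53.9 ± 11.2; 0.44 ± 0.10, 0.00114). In d3/d3 CR livers Rrm2 and Mcm6 were higher in males too (1.34 ± 0.29, 0.00494, and 0.68 ± 0.19, 0.0205), so that 3 members were called there and all were higher in males (8.81% of genes called, 5.18% higher and 3.62% lower). Of these, Ccne1 kept its call without the muscle-rich livers, Mcm6 and Rrm2 did not (0.0561 and 0.111), and Ccnd1 and Ccne2 were then called. With the groups fitted alone Ccne1 and Mcm6 were not called (0.0526 and 0.0959). In wild-type CR livers limma and edgeR called 0 members (4.57% of genes called, 2.56% higher and 2.01% lower), with 5 at an unadjusted p under 0.05, against 19% of all genes.

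The 5 mitosis genes lower in males were Cenpf (-0.73 ± 0.23, limma adjusted p = 0.0179), Mki67 (-0.71 ± 0.25, 0.0368), Ccna2 (-0.49 ± 0.18, 0.0489), Top2a (-0.48 ± 0.16, 0.0284) and Cenpa (-0.23 ± 0.07, 0.0186). Mki67 had 44.8 ± 32.2 (SD, n = 20) in males and 70.2 ± 37.9 in females, and Top2a 50.96 ± 23.3 and 71.4 ± 28.9. No mitosis gene passed within a single sex pair in this fit. In d3/d3 AL livers 10 mitosis genes were lower in males at an unadjusted limma p under 0.05, against 9.26% of all genes. Mki67, Top2a and Cenpf passed there with the groups alone, Cenpf with a pseudocount of 10, and Cdk1 and Aurka with library weights. Top2a passed in d3/d3 CR livers with library weights. In the mean of the sex pairs the calls of Ccna2 and Mki67 were lost in 27 and 13 of 40 fits that left out 1 liver. Without the muscle-rich livers 2 mitosis genes, Cenpf and Mki67, were called lower, against 10.3% of all genes, and Ccna2, Top2a and Cenpa were not called (0.0922, 0.0796 and 0.139). Without the lymphocyte-rich livers 7 were called lower, against 11.1% of all genes. In edgeR Mki67 was not called (0.0588). Cdk1 did not differ detectably (-0.01 ± 0.14), nor did Ccnb1 (-0.46 ± 0.33, 0.34), Foxm1 (-0.50 ± 0.22, 0.0898), Mcm2 (0.07 ± 0.17), Mcm5 (-0.09 ± 0.13), Pcna (-0.04 ± 0.05) or Rrm2 (0.12 ± 0.15). In the sex comparisons the same livers serve as in the diet comparisons.

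The difference between the diet responses was tested directly. In d3/d3 mice the change on restriction was larger in males than in females by 1.27 ± 0.27 for Mcm6 (limma adjusted p = 0.00746) and by 1.85 ± 0.42 for Rrm2 (0.0117), the 2 members called, where 2.09% of genes were called, 1.05% higher and 1.05% lower. For Ccnd1 the same difference was 2.01 ± 0.62 and did not pass (0.0779). Without the muscle-rich livers 1 member was called, against 0.624% of all genes, and the Rrm2 difference was 1.94 with an adjusted p of 0.162. Without the lymphocyte-rich livers 3 members were called, Ccnd1 with them, against 2.18% of all genes. In wild-type mice 0 members were called by limma or edgeR (0.348% of genes called, 0.203% higher and 0.145% lower), with 3 at an unadjusted p under 0.05, against 11.2% of all genes, and Rrm2 had the lowest adjusted p of 0.139. Between genotypes 0 members were called in males (0.0218% of genes called, 0.0145% higher and 0.00726% lower) or in females (0%) by limma or edgeR, with 4 at an unadjusted p under 0.05 in each, against 4.04% and 11.1% of all genes. The lowest adjusted p in females was 0.347 for Bub1b. The mitosis medians of -0.82 in d3/d3 and -0.18 in wild-type females thus stand without a called difference in any member.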

How the data were processed

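RNA-seq of liver total RNA (KAPA Hyperprep) from 40 mice was deposited by the authors as 1 table of normalized values per gene, a signal per the values rather than a raw count. The submitters' processing notes name FastQC, MultiQC, Trimmomatic, kallisto, DESeq2 and the build GRCm38; their versions and order are not given in those notes. The authors also deposited genotype comparisons with log2 fold changes and adjusted p-values. Of 17839 entries, 115 repeats were dropped, which left 17724 genes, and 13776 had a mean of 10 or more. Every library's values were whole multiples of its own step within 0.01 (100% of values), so reads were recovered, with totals of 21132490 to 44195300 and a median of 36347580. In 2 libraries the step was near 1. kallisto gives estimated counts, and how they became whole reads is not recorded, so the recovered reads are estimates too.

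The design had assumed raw counts where the files held normalized values, so limma 3.58.1 in R 4.3.3 was fitted to log2(value + 1) of all 40 livers with 8 group means, and p-values were adjusted over all 13776 genes at 0.05. Each diet, genotype and sex pair, the mean of each 4 pairs and the differences between diet changes were contrasts of that fit, 19 in all. Mice of a group are separate samples by their labels, and the most similar pair of replicates still differed by a chi-square of 30.2 per gene. Genes described throughout were Ccnd1, Ccne1, E2f1, Mcm2, Mcm5, Pcna, Rrm2, Mki67, Top2a, Cdk1, Ccnb1 and Foxm1, with up to 6 called members of largest change in each direction, and up to 4 called and 2 uncalled genes of each other list. Values quoted for further members complete their list. The members and lists were chosen with earlier results of these data known. Alternatives were a pseudocount of 10, no filter, median-of-ratios scaling (factors 0.992 to 1), the compared groups alone, library weights, edgeR 4.0.16 on recovered reads and 40 fits that each left out 1 liver. Leaving out muscle-rich livers (mean log2 of 8 or more) and lymphocyte-rich livers (B cell sum of 500 or more) was added after seeing the data. The fit was tested on simulated data. Gene positions are from GENCODE M21 and promoters from RefSeq GRCm38.p6.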

Additional observations from a re-analysis of the deposited data

Results flagged for a closer look

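Dixon's test (critical value 0.71) was applied to 232 groups of 5 livers, over 29 genes. In 22 the highest or lowest value stood apart from the other 4. About 1 in 20 groups would do so by chance if values were normal and independent. These were counts not on a log scale, and the genes share livers, so the 22 are not shown to exceed chance. The fifth wild-type AL male accounts for 7 of them. Its Ccnd1 was 2148, against 239 to 479 in the others, and its Mcm2 was 129, against 60.2 to 70.4. Mcm6 was 151 (75.1 to 93.1) and Top2a 131 (39.3 to 52.6). Cdc20 was 129 (8.39 to 22.3), Cenpe 44.8 (2.35 to 13.2) and Cenpa 179 (116 to 128). This liver has the highest B cell marker sum, 1460.

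Other wild-type males also stood apart. The third AL male had Pcna at 679 (782 to 811). The third CR male, with a B cell marker sum of 703, had Ccnb1 at 19.6 (1.02 to 4.66) and Uhrf1 at 38.2 (13.2 to 18.3). The fifth CR male had Cdt1 at 152 (88.8 to 106) and Cdk2 at 643 (465 to 516), and the first had Cenpa at 127 (170 to 186). The fifth wild-type CR female had Cdk1 at 56.2 (16.3 to 25.3) and Rrm1 at 439 (509 to 526).

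Among d3/d3 livers, the first AL male had Mcm6 at 116 (68.2 to 81.2) and Cenpf at 28.6 (up to 17.2 in the others). The fourth CR male had Uhrf1 at 48.9 (23.5 to 28.1), Bub1b at 32.3 (19.6 to 21.6) and Cenpe at 17.5 (4.91 to 6.49). Mcm2 was 184 in the fifth AL female (47.8 to 64.7), and Mcm6 was 213 in the fifth CR female (121 to 147).

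The diet change differed between the sexes of d3/d3 mice for Mcm6, by 1.27 (limma adjusted p = 0.00746), and for Rrm2, by 1.85 (adjusted p = 0.0117).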

How the results depend on the processing

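No paired analysis was possible because the labels give no replicate numbers; those used were given in accession order and pair nothing. Median-of-ratios scaling reversed or ended no call of a named gene. Without the muscle-rich livers the members called in the mean of the diet pairs were 19 in place of 29, all of them among the 29, and the mitosis genes called lower 6. That setting also gave 2 members and 1 replication gene higher in wild-type females, 3 and 2 in d3/d3 males, 3 members and 1 mitosis gene lower in d3/d3 females, and 1 member for the sex difference of the diet change in d3/d3 mice. Fewer livers were fitted there. Of all genes 33.6%, 4.04%, 8.18%, 7.56% and 0.624% were then called in those comparisons, in that order. Mitosis genes lower in wild-type males were 1 with the groups alone and 5 in edgeR. Of all genes 1235 and 1680 were lower there, against 1571. In d3/d3 males the mitosis genes lower were 2 with library weights or without the lymphocyte-rich livers. Of all genes 2002 and 1303 were lower there, against 1446. Replication genes higher in d3/d3 females were 1 with the groups alone, 7 with weights and 5 in edgeR. Of all genes 481, 1311 and 1323 were higher, against 1147. Library weights gave 1 member for the sex difference of the diet change in wild types, and 16 members in the mean of the sex pairs. Calls among all genes rose too, from 48 to 329 and from 3289 to 4446. Members called between the sexes in wild-type AL livers were 1 with the groups alone, with weights, and without the muscle-rich or lymphocyte-rich livers. Calls among all genes were then 454, 1513, 936 and 1029, against 892. In wild-type CR livers the members called were 1 with a pseudocount of 10 or the groups alone and 4 with weights. Calls among all genes were 646, 382 and 1759, against 630. In d3/d3 AL livers the members called were 2 with a pseudocount of 10 or without the muscle-rich or lymphocyte-rich livers. They were 4 with the groups alone and 6 with weights. Calls among all genes were 828, 773, 1011, 812 and 1913 in that order, against 848. In d3/d3 CR livers the members called were 1 with the groups alone and 7 with weights. Calls among all genes were 100 and 2088, against 1213. There the 3 members called without the muscle-rich livers, where 7.12% of all genes were called, share 1 gene, Ccne1, with the 3 called with all livers. Mitosis genes lower in the mean of the sex pairs were 2 without the muscle-rich livers. In d3/d3 males the replication minus mitosis difference changed by 1.21, CR minus AL, and by 0.94 with a pseudocount of 10. The cause was not tested.

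Leaving out 1 liver gave 7 to 15 members and 1 to 5 mitosis genes lower in wild-type males, 1 to 2 mitosis genes lower in wild-type females (2 without the fifth CR female), 1 to 2 in d3/d3 males (2 without the second wild-type AL male, the second wild-type CR male or the first d3/d3 CR male) and 3 to 7 in d3/d3 females, with 2 to 5 replication genes higher there. Sex calls ran from 1 to 2 in wild-type AL, 0 to 1 in wild-type CR and 1 to 2 in d3/d3 AL livers.

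Signs that reversed all belong to uncalled differences. On diet in wild-type males Mcm2 was -0.10 with weights, -0.20 without the muscle-rich and -0.02 without the lymphocyte-rich livers, and -0.22 to 0.21 leaving out 1 liver, where Top2a ran from -0.49 to 0.04. In wild-type females, without the muscle-rich livers, Ccnd1 was 0.08, Mcm2 -0.16 and Foxm1 -0.00, and Mki67 was 0.22 in edgeR; leaving out 1 liver gave -0.28 to 0.01 for Ccnd1, -0.41 to 0.26 for Mki67 and -0.27 to 0.46 for Foxm1. Ccnd1 was 0.23 with weights in d3/d3 females. Between genotypes, weights gave 0.03 for Ccnd1 and 0.05 for Ccne1, Ccne1 was 0.05 without the lymphocyte-rich livers, Mcm2 -0.02 without the muscle-rich livers and Mki67 -0.08 in edgeR; leaving out 1 liver gave -0.14 to 0.04 for Ccne1 and 0 to 0.18 for Foxm1. Between sexes Mcm2 was -0.13 without the muscle-rich and -0.00 without the lymphocyte-rich livers, and Cdk1 0.03 without the muscle-rich livers and -0.06 to 0.07 leaving out 1 liver. Depth limits the rarest members most: 1 to 59 reads lie behind Ccnb1 and 1 to 29 behind Aurkb.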
